A study of Mus musculus with 298 samples.

Results

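Lhx1, Six3, Six6, Vax1, Zfhx3, Tshz1, Tshz2 and Rxrg encode transcription factors, most of them known from the development of the embryonic forebrain. Their transcripts are still found in the clock of the mouse hypothalamus, the suprachiasmatic nucleus (SCN). These 8 genes, chosen by name, were taken from a count table of 22800 genes, which held all 8. They were followed in single SCN neurons. Each neuron had been recorded through a patch pipette in a brain slice, and the cytoplasm drawn into that pipette had then been sequenced as a Nextera XT library, so a value describes what was taken from 1 neuron, and several neurons could come from 1 slice.

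The light cycle of the mice was 12 h light and 12 h dark. Day cells came from slices cut near ZT0 (lights on), night cells from slices cut near ZT12 (lights off). Firing was labelled active, silent or depolarized, and each cell was labelled positive or negative for cFOS, a protein made after neuronal activity. Among day cells, 51 were cFOS+ and 27 cFOS- of those labelled active, and 17 were cFOS+ and 32 cFOS- of those labelled silent. Among night cells the active ones were 41 cFOS+ and 46 cFOS-, and the silent ones 35 cFOS+ and 35 cFOS-. Depolarized cells were 14 in all: by day 2 positive and 7 negative for cFOS, at night 3 positive and 2 negative. The sources used here give neither genotype, strain and age of the mice nor the way in which cFOS was scored.

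A pair of night silent cells with opposite cFOS labels, S70 and S71, had nearly identical profiles (a correlation across genes of 0.9995, against 0.696 for the next of 44253 pairs). Their mean stood for 1 cell, given no cFOS label, and 297 cells were left. Libraries held 3187057 to 25535298 reads, with a median of 6319546. The labels call the cells interneurons: neuronal markers summed to at least 100 CPM (read counts scaled to the same total in each cell) in all 297 cells, and the GABA genes Gad1, Gad2 and Slc32a1 together did in 266. Microglia markers also summed to 100 CPM or more in 115 of the 297 cells, and values without these cells are given where they differ. No animal or slice is named for any cell, so each group was 1 sample. No group was tested against another. Intervals cover counting error only: those of levels the counting of reads, and those of shares the counting of cells taken as independent draws. Neither covers the spread between animals or slices, so no difference is read from whether they overlap. In pooled cells, fewer cells with a gene and less of its RNA per cell cannot be told apart from the pooled level alone, so shares of cells are given beside it.

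Homeodomain and zinc finger factors of this kind bind DNA and set which genes a neuron keeps on. Six3 and Six6 are needed in mice for the SCN to form, and Vax1 for its normal development. Lhx1, a LIM homeodomain factor, and Zfhx3, a large protein with zinc fingers and homeodomains, act later, and mouse mutants of either lose part of the neuropeptide output of the SCN. Tshz1 and Tshz2 are teashirt zinc finger factors, and Rxrg is retinoid X receptor gamma, a nuclear receptor that pairs with other nuclear receptors. Vip, Avp and Sst encode the neuropeptides vasoactive intestinal peptide, vasopressin and somatostatin, which mark classes of SCN neurons.

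Zfhx3 was the most abundant of the 8 in CPM pooled over all cells and the most widespread. It stood at 145.0 CPM, and 83.8% of cells (95% Clopper-Pearson interval 78.9 to 87.9%) had a read of it after every cell was thinned to 4000000 reads, which left out the 19 shallowest of the 297 cells. In single cells Zfhx3 ran from 0 to 1033 CPM with a median of 65.4 CPM. Six3 came next at 78.0 CPM and in 69.1% of cells (63.3 to 74.4%). Lhx1 (52.9 CPM), Six6 (52.4 CPM) and Tshz2 (48.8 CPM) had similar pooled levels but different spread over cells, with reads in 32.0%, 28.8% and 45.7% of cells. Rxrg (17.1 CPM) was in 10.4% of cells (7.10 to 14.6%) and Tshz1 (11.9 CPM) in 14.4% (10.5 to 19.1%). Vax1 reversed that pattern: at 14.9 CPM it had reads in 31.3% of cells (25.9 to 37.1%), but 10 CPM or more in only 44 of 297.

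The 6 genes other than Zfhx3 and Six3 had a median of 0 CPM per cell, so their pooled level came from a minority of cells with high values. Lhx1 reached 1365 CPM, Six3 1335 CPM, Six6 1148 CPM, Tshz2 975.4 CPM, Rxrg 647.1 CPM, Vax1 425.8 CPM and Tshz1 372.2 CPM in their highest cells. Per kilobase of exon the order of the pooled levels was different. Six3 (14.3 CPM per kb), Vax1 (13.3), Six6 (13.1) and Lhx1 (13.0) then lay close together, Rxrg (7.44), Zfhx3 (6.91) and Tshz2 (6.27) followed, and Tshz1 was lowest at 2.03 CPM per kb. With the length of the longest transcript instead of all exons, 4 of the 8 kept their place.

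**Figure D1:**
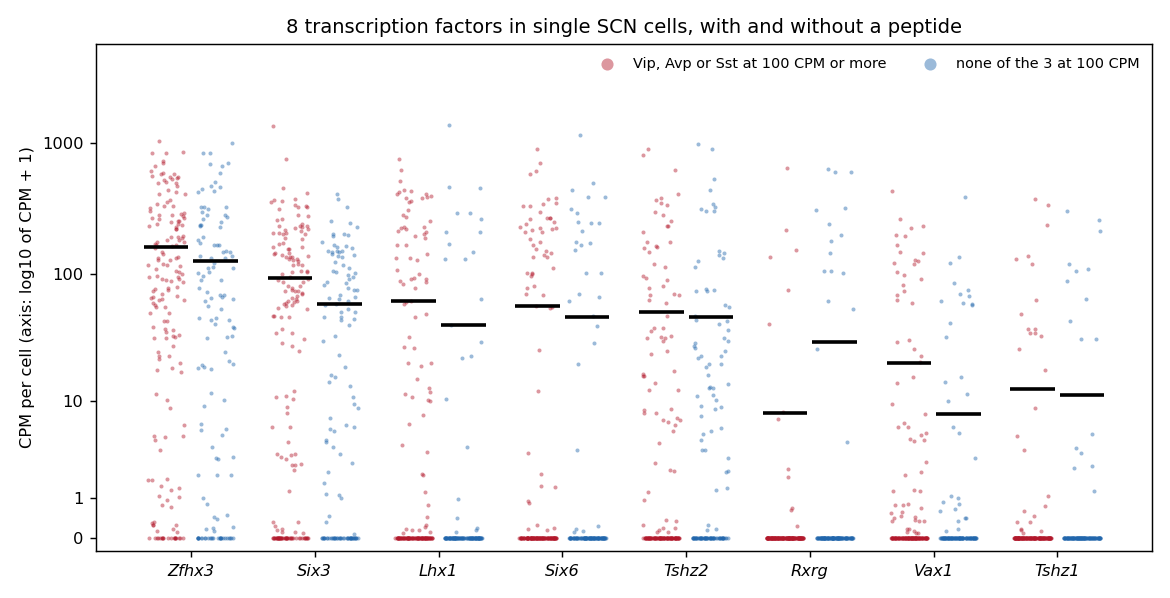
CPM of each of the 8 genes in each of 297 cells (points), on an axis of log10 of CPM + 1, in cells with at least 100 CPM of Vip, Avp or Sst (red, 171 cells) and in cells with none of the 3 at that level (blue, the other cells). Black bars are pooled CPM. The cells of both kinds overlap for every gene. The bars lie apart most for Rxrg (7.79 against 29.7 CPM) and Vax1 (20.2 against 7.69 CPM).

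The 8 genes lie on 8 chromosomes of GRCm38 (GENCODE M21). Lhx1 is on chromosome 11 (84518284 to 84525535, minus strand), Six3 on 17 (85613608 to 85629302, plus), Six6 on 12 (72939892 to 72944899, plus), Vax1 on 19 (59166187 to 59170056, minus), Zfhx3 on 8 (107942644 to 108961630, plus), Tshz2 on 2 (169633013 to 170071816, plus), Rxrg on 1 (167598384 to 167639623, plus) and Tshz1 on 18. No source used here says whether counting used strand. The exons of Six6 overlap those of 4930447C04Rik on the opposite strand, which stood at 110.1 CPM and had reads in 79 of the 86 cells with Six6, so reads in that stretch cannot be assigned to one gene. Of all 297 cells, 213 had reads of that gene. On the opposite strand, 5076 of the 7781 exon bases of Tshz2 are also shared with Gm26883, and a shorter stretch with A630075F10Rik. The exons of Six3 share 168 bases with Gm28528 and 106 with Six3os1. None of these 4 is in the count table, so if strand was ignored, their reads in those stretches would count as Tshz2 or Six3. For Tshz2 this limit holds for every level, share and ratio given here, and its size was not tested.

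The 250 bases before the RefSeq start (GRCm38.p6) are shown for the 4 SCN homeobox genes and for Vip, because the results below turn on how these genes share cells. Capitals mark CCAAT or its reverse complement ATTGG, and TGACG or CGTCA, motifs chosen after the sequences were seen. The windows are chr11:84525535-84525784 (minus strand) for Lhx1, chr17:85620584-85620833 (plus) for Six3, chr12:72939632-72939881 (plus) for Six6, chr19:59170398-59170647 (minus) for Vax1 and chr10:5638968-5639217 (plus) for Vip.
Lhx1: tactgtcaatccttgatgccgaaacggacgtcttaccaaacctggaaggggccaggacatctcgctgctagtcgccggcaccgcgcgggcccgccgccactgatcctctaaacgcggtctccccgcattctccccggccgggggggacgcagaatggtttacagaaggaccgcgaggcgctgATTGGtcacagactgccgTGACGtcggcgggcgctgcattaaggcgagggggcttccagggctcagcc
Six3: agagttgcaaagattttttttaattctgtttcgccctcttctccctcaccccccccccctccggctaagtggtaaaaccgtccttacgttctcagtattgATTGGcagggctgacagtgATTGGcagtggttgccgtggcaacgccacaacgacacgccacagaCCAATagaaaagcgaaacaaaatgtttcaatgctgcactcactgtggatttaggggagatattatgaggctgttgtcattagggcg
Six6: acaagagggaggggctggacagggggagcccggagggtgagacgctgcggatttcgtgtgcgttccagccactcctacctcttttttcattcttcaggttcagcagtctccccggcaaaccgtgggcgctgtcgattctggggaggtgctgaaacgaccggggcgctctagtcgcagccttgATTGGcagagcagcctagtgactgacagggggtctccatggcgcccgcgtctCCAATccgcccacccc
Vax1: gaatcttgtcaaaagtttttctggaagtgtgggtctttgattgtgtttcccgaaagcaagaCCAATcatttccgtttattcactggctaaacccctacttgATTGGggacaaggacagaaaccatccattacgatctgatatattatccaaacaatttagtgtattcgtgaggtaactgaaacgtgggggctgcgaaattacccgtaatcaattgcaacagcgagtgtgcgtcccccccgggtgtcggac
Vip: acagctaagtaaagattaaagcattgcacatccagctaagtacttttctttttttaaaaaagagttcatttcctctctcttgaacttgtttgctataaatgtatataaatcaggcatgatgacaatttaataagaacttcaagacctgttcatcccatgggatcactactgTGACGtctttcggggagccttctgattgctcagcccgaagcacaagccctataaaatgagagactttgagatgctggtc

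CCAAT or ATTGG occurred in the windows of Lhx1 (1 copy, starting 68 bases before the start), Six6 (2), Vax1 (2) and Six3 (3), and not in that of Vip. Of 32851 RefSeq windows of the same length, 33.8% hold one. TGACG or CGTCA, the core of a cAMP response element, occurred 50 bases before the start of Lhx1 and 79 bases before that of Vip, and in 17.8% of all windows. The window of Sst, not shown, held both forms, starting 48 and 45 bases before the start. Rxrg, Tshz2 and the peptide gene Avp also had a CCAAT or ATTGG in a window, and the Zfhx3 window had neither motif. TAATTA and CACGTG were also looked for. TAATTA was in none of the windows of these genes, where 4.84% of all windows hold it. CACGTG was in that of Avp only, where 6.02% of all windows hold it. A match describes letters only. RefSeq windows were found for 7 of the 8 genes.

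The first comparison asked whether these factors differed between cells with and without the main SCN peptides. Vip, Avp or Sst reached 100 CPM in 171 cells, called peptide cells here, and not in the remaining cells, called other cells. Few cells were near that limit: the highest of the 3 peptides lay between 50 and 100 CPM in 7 cells and between 100 and 200 CPM in 5, while 102 cells had less than 1 CPM. A gene counted as called at a 2-fold difference of (CPM + 1) with at least 20 CPM in one group, which 10.9% of 8694 genes met. Of the 8 factors, 7 had 20 CPM, 6 of these were higher in peptide cells (49.3% of all genes were), and 2 were called, 1 in each direction (5.16% of genes were called higher and 5.77% lower). Tshz1, below 20 CPM, stood at 12.5 CPM in peptide cells and 11.04 CPM in the other cells. The median log2 ratio of the 8 was 0.32, against -0.01 for all genes.

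Vax1 was called higher in peptide cells, with 20.2 CPM (19.96 to 20.48) in peptide cells and 7.69 CPM (7.50 to 7.88) in the other cells, a log2 ratio of 1.29. Single cells ran from 0 to 425.8 CPM in peptide cells and from 0 to 387.8 CPM in the other cells, with a median of 0 in both, so the cells of both kinds overlap. Reads of Vax1 were found in 36.8% of peptide cells (29.4 to 44.7%) and 23.5% of the other cells (16.1 to 32.3%). The log2 ratio differed between the 4 combinations of time and firing, from -1.33 in day silent cells to 4.90 in night silent cells. Without 1 night silent cFOS+ cell Vax1 was at 17.8 CPM in peptide cells, under the 20 CPM that a call needs, with a log2 ratio of 1.11.

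Rxrg was the factor called lower in peptide cells, with 7.79 CPM (7.63 to 7.95) in peptide cells and 29.7 CPM (29.30 to 30.02) in the other cells. Its log2 ratio was -1.80, and it was below 0 in all 4 combinations of time and firing, from -3.21 to -0.66. Single cells ran from 0 to 647.1 CPM in peptide cells and from 0 to 632.3 CPM in the other cells, and 4 peptide cells and 12 other cells reached 100 CPM. The highest peptide cell carried much of the peptide level, which was 4.36 CPM without it. Among cells whose numbers in the titles were at or below the median number the ratio was -0.44 and the call was lost, and above it the ratio was -2.99.

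The remaining factors were not called over all cells. Six3 was at 92.2 CPM in peptide cells and 58.8 CPM in the other cells, although nearly the same share of both had a read (69.3% and 68.7%). Lhx1 was at 62.2 and 40.2 CPM, Zfhx3 at 159.5 and 125.5 CPM, Six6 at 57.0 and 46.1 CPM, and Tshz2 at 50.5 and 46.5 CPM in peptide cells and other cells. A single cell without the peptides, a day active cFOS- cell with 1365 CPM, carried much of the Lhx1 level of the other cells, which was 24.5 CPM without it, and Lhx1 passed 2-fold once the highest cell of each group was left out (log2 ratio 1.22). Over 14 alternatives its ratio ran from -0.59 to 2.81 and passed 2-fold in 3. At least 100 CPM of microglia markers was present in 33.3% of peptide cells and 46.0% of the other cells, and the sum of the 13 markers was 799.6 and 1518 CPM; the highest single cells held 22848 and 37215 CPM, and no marker was at 0 in either. Astrocyte markers summed to 614.6 CPM in peptide cells and 421.1 CPM in the other cells, with 7 of 7 past 20 CPM higher in peptide cells, and glutamatergic markers to 21.6 and 86.0 CPM, with at least 100 CPM in 4 peptide cells and 24 other cells. The part of astrocyte and glutamatergic RNA in these differences was not tested. Without the cells with microglia markers only 2 of 6 factors past 20 CPM were higher in peptide cells (Six3 and Six6), Vax1 and Rxrg kept their direction (log2 ratios of 1.39 and -1.92), and Lhx1 was level (-0.03).

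Separated by peptide, Lhx1 was most frequent in Vip cells. Cells with at least 100 CPM of only 1 peptide were 48 Vip cells, 92 Avp cells and 21 Sst cells. Lhx1 had reads in 61.4% of the Vip only cells (27 of 44 thinned cells, 45.5 to 75.6%), 34.4% of the Avp only cells (24.7 to 45.2%), 3 of 20 Sst only cells (3.21 to 37.9%) and 19.1% of the other cells (12.4 to 27.5%). The pooled level was 96.8 CPM (95.7 to 97.9) in Vip only cells, 48.4 CPM in Avp only cells, 10.1 CPM in Sst only cells (0.222 CPM without its highest cell) and 40.2 CPM in the other cells. In single Vip only cells Lhx1 ran from 0 to 420 CPM with a median of 11.01 CPM, whereas the median was 0 in the other 3 classes. Across all 297 cells Vip was among the 3 genes whose log2 (CPM + 1) correlated most with that of Lhx1 (Pearson r = 0.32). By Spearman's rank correlation Vip (0.285) was not among the first 3, of which Id4 was the lowest (0.290). The same Vip values set the Vip class, so the correlation is not a separate result.

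The share of Vip only cells with Lhx1 was 59.1% of 22 cells by day and 63.6% of 22 at night, depolarized cells included, and it was similar in cells with low and high numbers (62.1% of 29 and 60.0% of 15). The share of other cells with Lhx1 was 17.2% and 21.1% among cells with low and high numbers. After cells with microglia markers were left out, Lhx1 was in 53.3% of 30 Vip only cells (34.3 to 71.7%) and 29.5% of 61 other cells (18.5 to 42.6%). Without those cells the pooled levels were 89.1 and 64.3 CPM. Before that step the other cells were at 40.2 CPM, and at 24.5 CPM without 1 day active cFOS- cell. These subsets of the peptide classes were chosen after the values were seen.

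Vax1 had its highest level and share in the same class. It stood at 38.1 CPM in Vip only cells (28.8 CPM without 1 night silent cFOS+ cell), 13.3 CPM in Avp only cells, 3.78 CPM in Sst only cells and 7.69 CPM in the other cells. Of all 55 cells with at least 100 CPM of Vip, 8 had at least 100 CPM of Vax1, whereas the shares below count any read. Reads were found in 52.3% of Vip only cells (36.7 to 67.5%), 35.6% of Avp only cells (25.7 to 46.3%), 3 of 20 Sst only cells (3.21 to 37.9%) and 23.5% of the other cells (16.1 to 32.3%). Without cells with microglia markers the shares were 43.3% (25.5 to 62.6%) in Vip only cells and 26.2% (15.8 to 39.1%) in the other cells.

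Rxrg was nearly missing from Vip only cells, where it stood at 0.0878 CPM, and from Avp only cells, at 2.21 CPM (0.022 CPM without the highest cell). In Sst only cells it was at 55.5 CPM (27.4 CPM without the highest cell) and in the other cells at 29.7 CPM. It reached 100 CPM in 0 of 48 Vip only cells, 1 of 92 Avp only cells, 3 of 21 Sst only cells and 12 other cells. Reads were found in 35.0% of Sst only cells (15.4 to 59.2%), 4.44% of Avp only cells (1.22 to 10.99%) and 4.55% of Vip only cells (0.555 to 15.5%). The Sst only cells with Rxrg had low cell numbers, with Rxrg in 6 of 7 thinned cells up to the median number and 1 of 13 above it, and the labels do not tie those numbers to a slice or animal. Markers of glutamatergic neurons summed to 118.2 CPM in Sst only cells and 86.0 CPM in the other cells. They summed to 27.9 CPM in Vip only cells and 1.08 CPM in Avp only cells. The part of glutamatergic cells in the Rxrg levels of these classes was not tested.

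Tshz2 was lower in Vip only cells, at 21.9 CPM, against 46.5 CPM in the other cells, and it was at 60.3 CPM in Avp only cells and 58.001 CPM in Sst only cells. Its shares were 34.1% of Vip only cells and 49.6% of the other cells, with intervals of 20.5 to 49.9% and 40.1 to 59.0%. Without 1 of the other cells, a day silent cFOS- cell, the other cells were at 40.03 CPM and Tshz2 was no longer called (log2 ratio -0.84). Against the other cells, 4 of 7 factors past 20 CPM were called in Vip only cells, Lhx1 and Vax1 higher and Tshz2 and Rxrg lower, where 21.1% of all genes were called (8.03% higher and 13.1% lower). In Avp only cells 1 of 6 was called, Rxrg lower, where 19.9% of genes were (10.8% lower). In Sst only cells 2 of 7 were called, Tshz1 higher (25.3 against 11.04 CPM, but 10.1 CPM without its highest cell) and Lhx1 lower, where 26.6% of genes were (12.4% higher and 14.2% lower). Between Vip only and Avp only cells 2 of 6 were called, Vax1 higher (log2 ratio 1.45) and Tshz2 lower (-1.42), where 25.5% of genes were. Zfhx3, Six3 and Six6 were called in none of these 3 classes.

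**Figure D2:**
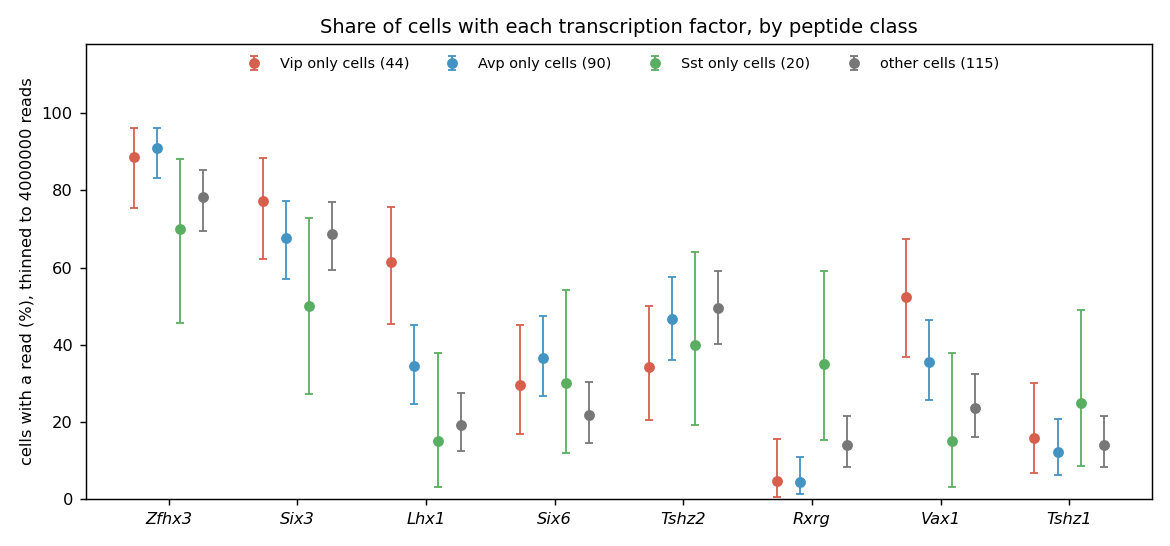
Share of cells with a read of each gene after thinning to 4000000 reads, in Vip only, Avp only, Sst only and other cells (numbers of thinned cells in the legend); bars are 95% Clopper-Pearson intervals. Lhx1 and Vax1 are highest in Vip only cells (61.4% and 52.3%), Rxrg is highest in Sst only cells (35.0%), and Zfhx3 is lowest in Sst only cells (14 of 20) and highest in Avp only cells (91.1%).

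Most cells without a peptide still carried at least 1 SCN homeobox gene, most often Six3. At least 1 of Lhx1, Six3, Six6 and Vax1 had a read in 84.7% of peptide cells (138 cells, 78.2 to 89.8%) and 77.4% of the other cells (89 cells, 68.7 to 84.7%). All 4 were found together in 15 peptide cells and 4 other cells. Six3 and Six6, which are paralogs, were both present in 24.5% of peptide cells and 19.1% of the other cells.

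Among related genes, 3 of 17 paralogs of the 8 factors passed 20 CPM over all cells: Zfhx2 (64.6 CPM), Rxrb (38.6 CPM) and Rxra (21.2 CPM). Lhx5, the closest relative of Lhx1, was at 6.31 CPM. None of 21 transcription factors that mark neighbouring or other forebrain regions reached 20 CPM over all cells, where the highest was Tcf7l2 at 9.78 CPM, but their sum was 21.1 CPM in peptide cells and 72.1 CPM in the other cells. Within smaller groups Fezf1 reached 25.7 CPM in Sst only cells and Isl1 30.3 CPM in day silent cells. Of 36 other factors of the anterior hypothalamus or of SCN neurons, 14 passed 20 CPM in peptide or other cells. Of these 14, 9 were higher in peptide cells, where 49.3% of all genes were. The nuclear receptor genes Rora (553.2 against 211.1 CPM) and Rorb (283.8 against 116.2 CPM) and the inhibitor Id4 (213.9 against 103.3 CPM) were called higher in peptide cells, and the homeobox gene Dlx1 (8.07 against 24.5 CPM) was called lower. Over all genes 5.16% were called higher and 5.77% lower. The list of 14 genes tied to Lhx1 or Zfhx3 in mouse mutants holds Vip, Avp and Sst themselves, which set the groups. Of its other members, Prok2 (71.2 against 14.1 CPM), Nms (577.9 against 144.1 CPM) and Vipr2 (300.3 against 134.8 CPM) were called higher in peptide cells. In the whole list 12 genes passed 20 CPM and 6 were called higher, the 3 peptides included.

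The second comparison set day cells against night cells, with 127 and 156 active and silent cells. No factor was called, where 8.22% of 8637 genes were, and 4 of the 6 factors past 20 CPM were higher by day, where 47.4% of genes were. Tshz2 and Zfhx3 were higher by day in all 4 combinations of firing and cFOS label. By day Tshz2 stood at 59.0 CPM (58.5 to 59.6), against 36.8 CPM (36.4 to 37.1) in night cells, with log2 ratios from 0.21 to 1.43 across the combinations. Single cells ran from 0 to 902.8 CPM by day, with a median of 1.21 CPM, and from 0 to 799.0 CPM at night, with a median of 0, so day and night cells overlap. Tshz2 had reads in 54.2% of the cells by day (44.8 to 63.3%), against 58 of 145 cells at night (31.96 to 48.46%).

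Zfhx3 had pooled intervals of 161.9 to 163.6 CPM by day and 125.3 to 126.7 CPM at night, but its median per cell was 56.5 CPM in day cells, against 64.1 CPM in night cells, with shares of 84.2% and 82.8%. Among cells numbered up to the median its log2 ratio was -0.34, against 0.37 over all. Six3 (74.9 and 80.0 CPM), Lhx1 (55.1 and 52.6 CPM) and Six6 (46.8 and 57.8 CPM) differed less by time. Without the highest cell of each time Lhx1 was at 39.7 CPM in day cells, against 48.4 CPM in night cells, so 1 day cell set its direction. By day Rxrg was at 22.8 CPM, against 13.8 CPM at night, and reached 100 CPM in 12 of 127 day cells and 4 of 156 night cells.

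Markers of other cell types also differed between the times. The summed level of microglia markers was 1552 CPM by day, against 568.3 CPM at night, and they were higher by day for 12 of 12 markers past 20 CPM, with at least 100 CPM in 44.1% of day cells and 33.3% of night cells. Astrocyte markers summed to 766.4 and 358.1 CPM, with 7 of 7 higher by day, and oligodendrocyte markers to 517.7 and 295.2 CPM, with 5 of 5 higher. No marker of these lists was at 0 at either time. Without the cells with microglia markers the day over night log2 ratio was 0.04 for Tshz2, -0.68 for Rxrg and 0.55 for Zfhx3. The part of glial RNA in the rest of the difference was not tested.

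The last comparison set 165 active cells against 49 day and 69 night silent cells. Rxrg was the 1 factor called, and it was lower in active cells, where 7.39% of 8662 genes were called and 3.41% were called lower. It stood at 6.06 CPM in active cells (5.92 to 6.21) and 34.1 CPM in silent cells (33.7 to 34.5), a log2 ratio of -2.31. Single cells ran from 0 to 239.4 CPM in active cells and from 0 to 647.1 CPM in silent cells, with a median of 0 in both. The ratio was below 0 in all 4 combinations of time and cFOS label, from -2.93 to -0.002, so it was level in 1 of them (night cFOS- cells). It was -2.12 among day cells and -2.73 among night cells.

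Rxrg reached 100 CPM in 3 of 78 day active cells, 1 of 87 night active cells, 9 of 49 day silent cells and 3 of 69 night silent cells. By share of cells with a read the difference was smaller, 8.39% of active cells (4.54 to 13.9%) and 13.6% of silent cells (7.84 to 21.5%). The 16 cells at 100 CPM of Rxrg or more differed from the rest in other ways. Markers of glutamatergic neurons reached 100 CPM in 7 of them (43.8%), against 9.43% of all cells, and the GABA genes Gad1, Gad2 and Slc32a1 together did in 12. Microglia markers reached 100 CPM in 10 of them (62.5%), against 38.7% of all cells, and the median number of detected genes was 5792, against 4474 over all cells. The part of these in the Rxrg difference was not tested beyond the ratio without the cells with microglia markers, which was -2.39.

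Of the 6 factors past 20 CPM, 2 were higher in active cells, where 50.5% of genes were. Lhx1 was at 65.4 CPM in active cells and 37.6 CPM in silent cells, higher in 3 of the 4 combinations, and had reads in 34.2% of active cells (26.8 to 42.2%) and 28.2% of silent cells (20.02 to 37.56%). Without the highest cell of each group its levels were 53.7 and 32.0 CPM. Six3 was at 84.0 and 69.1 CPM and was higher in active cells in all 4 combinations, by log2 ratios of 0.08 to 0.56. Zfhx3 was at 132.5 CPM in active and 156.2 CPM in silent cells and was lower in active cells in all 4, by -0.26 to -0.03. Six6 was at 45.2 and 63.5 CPM, and its ratio was below 0 in 3 of the 4. Of the thinned Vip only cells, 35 were active and 6 silent, so peptide class and firing were not independent.

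Within one time or one kind of firing the groups are smaller, more genes pass 2-fold, and most calls rested on 1 cell. Between day silent and night silent cells 3 of 8 factors were called, where 20.1% of genes were: Tshz2 (80.6 against 31.3 CPM) and Tshz1 (21.8 against 9.15 CPM) higher by day and Vax1 (9.36 against 21.4 CPM) lower. Each call was lost without 1 cell. Day silent Tshz2 was then at 53.6 CPM (log2 ratio 0.76), day silent Tshz1 at 9.19 CPM, level with night, and night silent Vax1 at 15.3 CPM (log2 ratio -0.66).

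Between day active and night active cells 1 of 6 was called, where 16.4% of genes were. Vax1 was higher by day, at 21.1 CPM, against 8.10 CPM at night, and without 1 day active cell it was at 17.8 CPM, under the 20 CPM that a call needs (log2 ratio 1.05). Between day active and day silent cells 4 of 8 were called, where 20.1% of genes were: Lhx1 (75.0296 against 24.4 CPM) and Vax1 higher and Six6 (31.7 against 70.0046 CPM) and Rxrg (9.25 against 43.5 CPM) lower in active cells. Of these, only Rxrg was still called whichever cell was left out. Without 1 cell, day active Lhx1 was at 49.8 CPM (just under 2-fold), day active Vax1 at 17.8 CPM (log2 ratio 0.86) and day silent Six6 at 42.9 CPM (log2 ratio -0.43).

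Between night active and night silent cells 2 of 7 were called, where 15.3% of genes were, both lower in active cells. Vax1 (8.10 against 21.4 CPM) was at 15.3 CPM in silent cells without 1 cell (log2 ratio -0.84). Rxrg (3.26 against 27.2 CPM) was at 11.2 CPM in silent cells without 1 cell, under the 20 CPM that a call needs, and still lower in active cells (log2 ratio -1.52). The call of Rxrg over all active and silent cells was kept whichever cell was left out, with log2 ratios from -2.57 to -1.88.

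**Figure D3:**
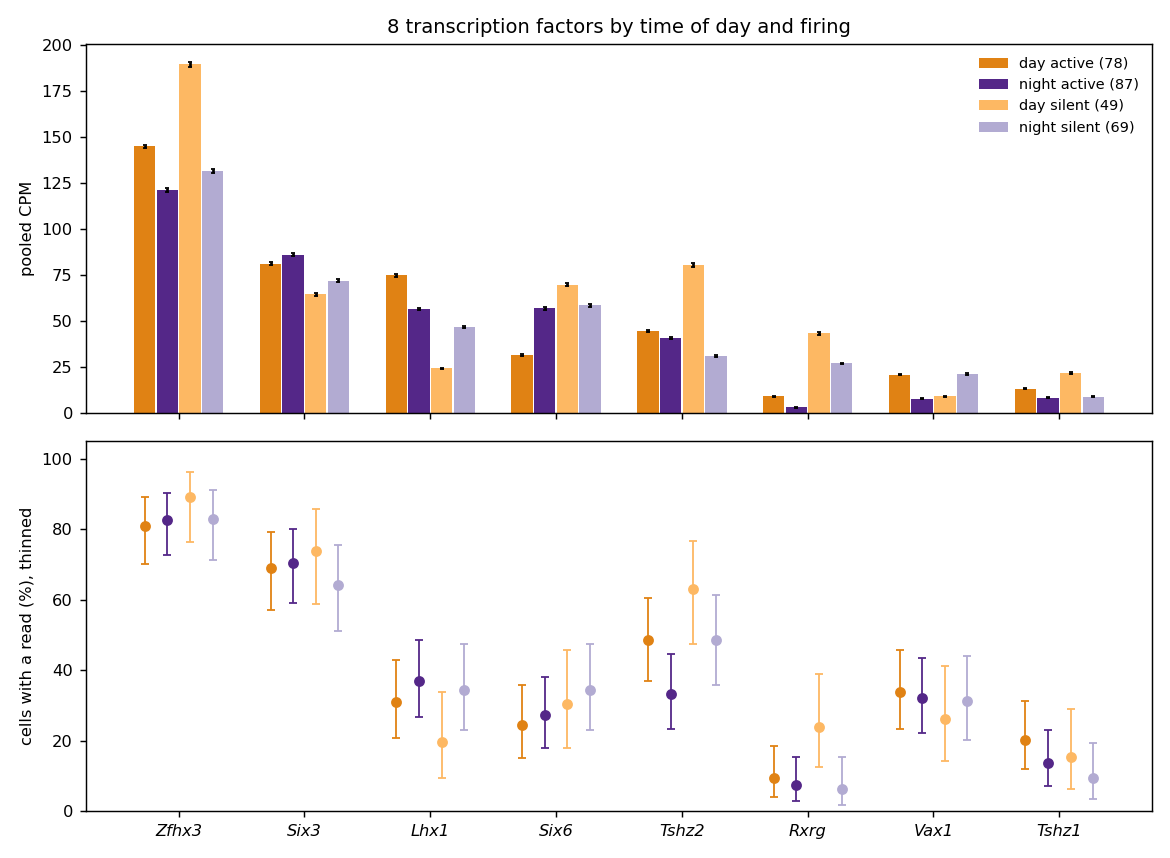
Pooled CPM with exact Poisson 95% intervals (top) and share of cells with a read after thinning, with Clopper-Pearson 95% intervals (bottom), of each gene in day active, night active, day silent and night silent cells (numbers of cells in the legend). Rxrg is higher in both groups of silent cells (43.5 and 27.2 CPM) than in both groups of active cells (9.25 and 3.26 CPM), and Tshz2 is highest in day silent cells (80.6 CPM).

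**Figure D4:**
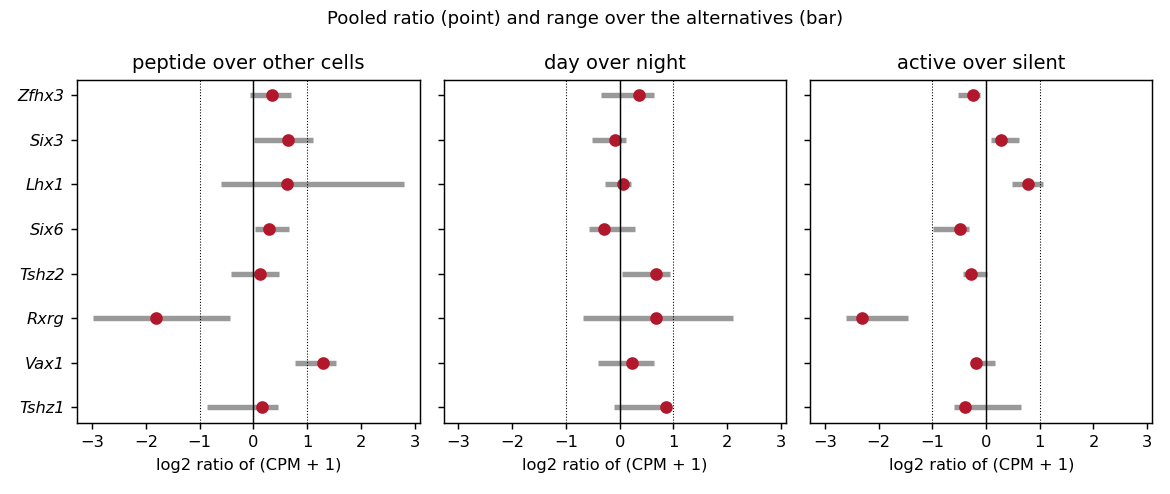
Log2 ratio of (CPM + 1) of each gene in peptide over other cells, day over night and active over silent cells (points), with the range over the alternative settings (grey bars); dotted lines mark 2-fold. Rxrg stays below 0 in peptide and active cells and Vax1 above 0 in peptide cells, while the bars of Lhx1, Zfhx3, Tshz1 and Tshz2 for peptide over other cells cross 0.

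Most cells held several of the 8 factors. After thinning, the median was 3 factors with a read, 10 cells had none, 77 had 3 and 2 had 7. Vip only cells had a median of 4 and Avp only, Sst only and other cells one of 3. Lhx1 and Vax1 were found in the same cell more often than the product of their shares gives, in 44 cells against 27.9, and likewise Lhx1 and Six6 in 37 cells against 25.6 and Lhx1 and Six3 in 73 cells against 61.5. Pairs without Lhx1 were also above that product, such as Six3 and Vax1 in 73 cells against 60.1 and Tshz1 and Tshz2 in 25 against 18.3. Of the cells with Lhx1, 49.4% had Vax1, against 22.8% of the cells without it. Rxrg was below that product with Lhx1, in 6 cells against 9.28, and with Vax1, in 6 against 9.08. Its overlap was nearer the product with Six6, in 8 cells against 8.35, and with Six3, in 18 against 20.03. Rxrg shared 9 cells with Tshz1, against 4.17, and 19 with Tshz2, against 13.2.

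These overlaps are descriptions over cells that share slices and differ in depth. Across cells, log2 (CPM + 1) of Rxrg correlated with the number of detected genes at r = 0.32, that of Tshz1 at 0.25 and that of Tshz2 at 0.19, against 0.01 to 0.10 for the other 5. Correlations between pairs of the 8 were weak, from -0.12 for Lhx1 and Rxrg to 0.28 for Lhx1 and Six3.

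**Figure D5:**
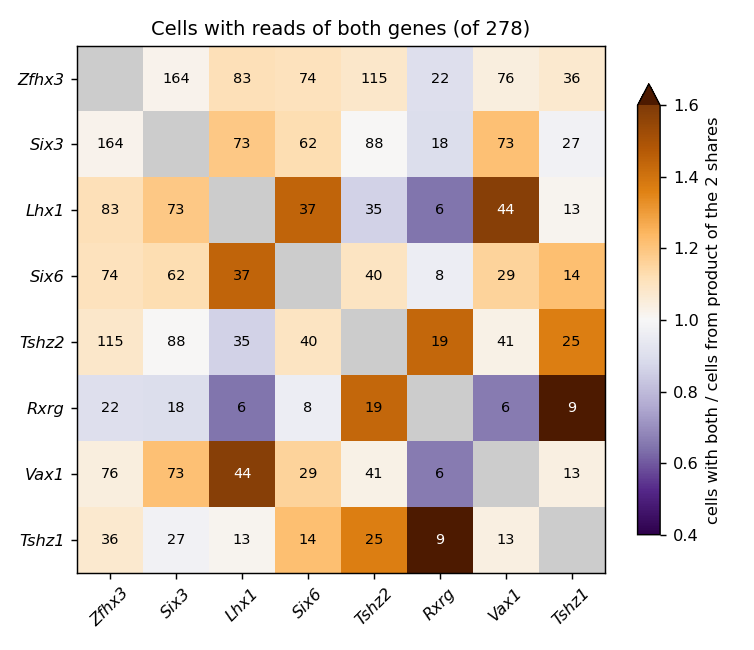
Number of thinned cells with reads of both genes of each pair (figures in the squares), coloured by its ratio to the number that the product of both shares gives. Lhx1 is found with Vax1 in 44 cells and with Six6 in 37, above that product, and with Rxrg in 6, below it; the largest ratio is that of Rxrg and Tshz1, from 9 cells.

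For each factor, the 3 genes with the highest Pearson correlation of log2 (CPM + 1) over 297 cells were listed from 6788 genes with 1 CPM in at least 20% of cells. For Lhx1 they were Parm1 (0.36), Synpr (0.36) and Vip (0.32), for Six3 Lhx1 (0.28), Rap1gds1 (0.27) and Chga (0.25), and for Six6 Tle4 (0.26), Vipr2 (0.25) and Fto (0.24). Zfhx3 was followed most closely by Tenm3 (0.33), Dbn1 (0.29) and Pde10a (0.28), and Tshz2 by the clock output gene Dbp (0.30), Sphk2 (0.26) and Taz (0.24). Rxrg had the highest values of the 8, with the G protein regulator Rgs4 (0.42), neurogranin, Nrgn (0.40), and the neurofilament gene Nefm (0.37). Those of Vax1 (Spon1, Spdya and Iqgap1) and Tshz1 (Rwdd4a, Dscr3 and Rrp9) were 0.22 to 0.27. With Spearman's rank correlation, 8 of the 24 places were filled by the same genes.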

How the data were processed

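Reads were aligned with STAR to GRCm38.p4 and handled with DESeq2, per the submitters' processing notes. No version, annotation, counting tool or strand setting is stated in the labels. Raw read counts were deposited by the authors per gene (reads, not molecular identifiers), with a second table of normalized signal, the same counts divided by 1 factor per cell, used here as an alternative. All columns were matched to a cell by title.

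Counts were turned into CPM per cell and pooled over the cells of a group, with exact Poisson intervals. Shares of cells were taken after thinning each cell to 4000000 reads, with exact Clopper-Pearson 95% intervals. Ratios are log2 of (CPM + 1) of one group over the other, and genes with at least 20 CPM in one group were compared. Each group was 1 sample, so no p-value was computed. The genes named were the 8 factors, Vip, Avp and Sst, the 3 genes most correlated with each factor, and members of the listed groups with 20 CPM. Those chosen after their values were seen are Lhx5, Tcf7l2, Fezf1, Isl1, Dlx1 and the overlapping genes. The 8 factors and the lists were chosen with earlier results of these data known. The calculation of ratios and calls was tested on simulated data with known fold changes, which checks the calculation and no group. Python 3.11.15, numpy 2.4.6, pandas 2.3.3, scipy 1.17.1 and matplotlib 3.10.9 were used.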

Additional observations from a re-analysis of the deposited data

Results flagged for a closer look

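Among the 7 day depolarized cFOS- cells, the highest cell passed a limit for outlying values for 3 of the factors, a different cell each time. The highest Lhx1 value was 403.996 CPM, with the next at 11.8 CPM. The highest Tshz2 value was 975.4 CPM, with the next at 349.2 CPM. For Tshz1 the highest was 0.141 CPM and all others were at 0, where any value above 0 passes the limit, so this cell does not count as outlying. The limit used is one that chance passes in about 1 of 20 groups of normally distributed values, and these values, with many zeros, are not so distributed.

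The direction of some differences changed between groups, and none of these changes was tested. The day over night log2 ratio of Lhx1 was 0.39 in active cells and -0.92 in silent cells, but without 1 day active cFOS- cell the ratio in active cells was -0.19, below 0 as in silent cells. That of Vax1 was 1.28 in active cells and -1.11 in silent cells. The active over silent log2 ratio of Tshz2 was -0.83 in day cells and 0.38 in night cells, and it was -0.25 in day cells without 1 day silent cell.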

How the results depend on the processing

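Of the 7 factors past 20 CPM, 6 were higher in peptide cells, against 2 of 6 after cells with microglia markers were left out and 3 of 6 among cells numbered above the median. By day 4 of 6 were higher, against 2 of 5 without the highest cell of each group and 2 of 5 among cells numbered up to the median. The count higher in active cells stayed within 2 to 3 under every alternative run. With the longest transcript 4 of 8 factors kept their place in the order of levels per kilobase, 3 instead of 5 factors were in at least 30% of cells when 10 CPM was asked for, and 8 of 24 correlated genes were shared with Spearman's correlation. The cause of these shifts was not tested. Vax1 was higher in peptide cells under all 14 alternatives (log2 ratio 0.77 to 1.54) and Rxrg lower (-2.99 to -0.44). The alternatives for the peptide classes, and pairs without thinning, were chosen after seeing the data. No paired analysis was possible because the numbers in the titles count cells and name no pairing, and 1 number alone recurs, with a suffix. When each cell was left out in turn, also chosen after seeing the data, 10 of 22 calls over all comparisons were kept whichever cell it was, and Tshz1 in Sst only over other cells reversed (log2 ratios from -0.12 to 1.45). Values below a few reads per cell, and classes of 20 cells or so, give wide intervals.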

Other observations

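The 14 depolarized cells were counted among peptide, peptide class and other cells, and not in the comparisons of day with night or of active with silent cells. Zfhx3 ran from 0 to 550.6 CPM in them and Six3 from 0 to 278.1 CPM. In 1 night cFOS+ cell Lhx1 was at 127.6 CPM and Six6 at 221.6 CPM, and the highest Six6 value, 223.4 CPM, was in a day cFOS- cell with Lhx1 at 0. Vax1 reached 102.8 CPM in 1 night cFOS- cell, and Rxrg had at most 1.88 CPM in any depolarized cell.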
